A study of Mus musculus with 5 samples.

Results

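The 10 genes described here belong to the BCL2 family, whose proteins decide at the mitochondrial outer membrane whether a cell survives. They were chosen by symbol (Bcl2, Bcl2l1, Mcl1, Bax, Bak1, Bcl2l11, Bid, Bad, Bbc3 and Pmaip1), and all 10 were found among the 13339 genes of the deposited table. Their transcripts were followed in macrophages derived from mouse bone marrow: phagocytes that develop when marrow of 8-week C57BL/6 animals is cultured for 5 days with M-CSF. The samples, titled WT2, were libraries of cells given LPS (lipopolysaccharide of Gram-negative bacteria, the ligand of TLR4) at 100 ng/ml for 4, 8, 12 or 24 h and of cells at 0 h, with 1 library per time point. Because no time point had a second library, no test between times was possible, and every difference compares 1 library with 1 other. The labels list no unstimulated cells kept in culture for 4 to 24 h, so time in LPS and time in culture cannot be told apart.

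The family is usually divided by role. Survival proteins (BCL2, BCL-XL from Bcl2l1, MCL1, and A1 from the Bcl2a1 genes) hold the death effectors in check. The effectors BAX and BAK, once active, form pores that release cytochrome c and start the caspase cascade. BH3-only proteins (BIM from Bcl2l11, BID, BAD, PUMA from Bbc3 and NOXA from Pmaip1) relay stress signals and either block the survival proteins or activate the effectors. In macrophages MCL1 and A1 are known as survival proteins with short half-lives, and many family members are also controlled after transcription, which RNA levels do not show.

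Promoter windows are shown for members whose time courses parted. Bcl2l11 and Bbc3 are both BH3-only genes that hold a FoxO motif, and Bax and Bak1 are the effectors. Each window runs from 250 bases before to 50 bases after a RefSeq transcription start (GRCm38.p6), and 9 of the 10 members had at least 1 window (15 in all). The sequences run 5′ to 3′ on the gene's strand, and capitals mark GTAAACA (the FoxO core motif, either strand) or CACGTG (the E-box, which reads the same on both strands).
Bcl2l11, chr2:128125788-128126087, plus strand: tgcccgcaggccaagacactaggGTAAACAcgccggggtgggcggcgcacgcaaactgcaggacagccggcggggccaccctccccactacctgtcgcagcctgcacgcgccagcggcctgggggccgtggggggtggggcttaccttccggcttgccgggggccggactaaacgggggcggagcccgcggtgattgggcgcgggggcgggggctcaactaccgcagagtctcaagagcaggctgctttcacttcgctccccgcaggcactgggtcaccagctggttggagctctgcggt
Bbc3, chr7:16310011-16310310, plus strand: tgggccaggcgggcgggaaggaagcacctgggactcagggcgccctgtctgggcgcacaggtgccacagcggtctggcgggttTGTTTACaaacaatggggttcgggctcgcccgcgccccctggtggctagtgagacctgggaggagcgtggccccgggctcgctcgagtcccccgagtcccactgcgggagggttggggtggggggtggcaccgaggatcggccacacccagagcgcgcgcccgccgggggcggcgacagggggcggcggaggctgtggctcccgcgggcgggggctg
Bax, chr7:45466849-45467148, minus strand: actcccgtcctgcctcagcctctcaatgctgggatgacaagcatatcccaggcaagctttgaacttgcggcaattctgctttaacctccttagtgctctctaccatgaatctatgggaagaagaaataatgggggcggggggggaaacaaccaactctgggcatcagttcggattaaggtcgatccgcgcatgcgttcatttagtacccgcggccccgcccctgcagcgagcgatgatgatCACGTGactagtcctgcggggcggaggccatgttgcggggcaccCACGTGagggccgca
Bak1, chr17:27028578-27028877, minus strand: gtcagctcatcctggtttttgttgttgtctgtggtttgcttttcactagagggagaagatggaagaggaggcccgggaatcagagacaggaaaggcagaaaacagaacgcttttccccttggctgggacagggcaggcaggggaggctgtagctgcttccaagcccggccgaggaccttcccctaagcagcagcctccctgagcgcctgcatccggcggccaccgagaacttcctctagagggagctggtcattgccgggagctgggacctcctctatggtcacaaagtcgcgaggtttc
Bcl2a1b, chr9:89199023-89199322, plus strand (not a member; capitals mark TGATGCAA, a composite C/EBP-ATF motif): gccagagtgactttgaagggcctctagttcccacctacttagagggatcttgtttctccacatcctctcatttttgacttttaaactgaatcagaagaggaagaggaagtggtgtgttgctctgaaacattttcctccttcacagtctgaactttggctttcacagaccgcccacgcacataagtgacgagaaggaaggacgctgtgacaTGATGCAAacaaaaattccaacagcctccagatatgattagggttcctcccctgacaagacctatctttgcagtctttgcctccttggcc

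The FoxO letters began at base -227 in the first of the 2 Bcl2l11 windows and at base -167 in the middle one of the 3 Bbc3 windows, counted from the start of transcription. They were in 2 of the 15 member windows and in 3.65% of all 32851 windows of this length. Bax had CACGTG at base -9 and at base 36, and the Bak1 window had neither motif. CACGTG was in 2 of the 15 member windows and in 7.15% of all windows. Besides Bax, the last Bbc3 window, which is not shown, held it at base -64. GGGCGG, the GC box, was in 10 of the 15 member windows against 35.7% of all windows, and the members' windows had a GC content of 49.3% to 78.0% against a median of 52.7%. The NF-kappaB consensus was in 2 member windows (1 of Bcl2l1 and 1 of Bbc3) and in 4.51% of all. Neither TGACGTCA, the cyclic AMP response element, nor TGATGCAA was in a member window, while TGATGCAA was in the windows of all 3 Bcl2a1 genes and in 0.895% of all windows. The windows of these 3 gene copies repeat much of the same sequence, so their matches are not separate finds. The middle and last Bbc3 windows overlap, so some of their GC boxes are counted in both. These matches describe letters and not binding.

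Levels are given as FPKM, a fragment count corrected for transcript length and library size, which allows genes of different length to be set side by side within a library. Differences are given as differences of log2(FPKM + 1), which understate the change of low genes, and genes 2-fold or more apart on that scale are counted. The filter, a 5-library mean of 1 FPKM or more, kept 9795 genes and 9 of the 10 members; Bcl2 was below it. The libraries differed in level, with 4 h the farthest from 0 h and 24 h the closest to it. Over these 9795 genes the median differences from 0 h at 4, 8, 12 and 24 h were -0.70, -0.49, -0.35 and -0.11. Each member's difference is therefore also given after dividing every library by the median of its genes' ratios to 0 h. These values are called scaled, or scaled to the median gene. The median was taken over genes over the filter with a level above 0 in both libraries. From the steps between low values of genes with 1 transcript, each library was estimated to hold 18.9 to 19.2 M reads. Intervals given with ratios are 95% counting intervals at this estimated depth and for the shortest coding transcript of the gene. They cover counting error only, not the spread between cultures. All 10 macrophage markers were listed, with a summed level of 3165 to 3564 FPKM. One protocol field names mDCs. Of 10 dendritic cell markers 9 were listed, with a sum of 212 and 1264 FPKM at 0 and 24 h, most of it Bst2, which interferon also induces, with 164.39 and 1248.68. Itgax, which macrophages also express, was at 43.96 and 4.65 FPKM at these times, and Ccr7 was at 1.2 and 14.82 FPKM at 0 and 8 h. Siglech stayed at or below 1.27 FPKM, and Flt3, Zbtb46, Xcr1, Clec9a and Itgae at or below 0.64. Of 10 neutrophil markers 8 were listed, with a sum of 341.9 and 60.77 FPKM at 0 and 24 h. Of 10 lymphoid markers 7 were listed, with sums of 2.17 to 9.72 FPKM. Of 10 stromal and erythroid markers 7 were listed, with sums of 7.37 to 15.19 FPKM. The part of these changes in the results was not tested. In bulk RNA, fewer cells of a type and less RNA per cell cannot be told apart.

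**Figure D1:**
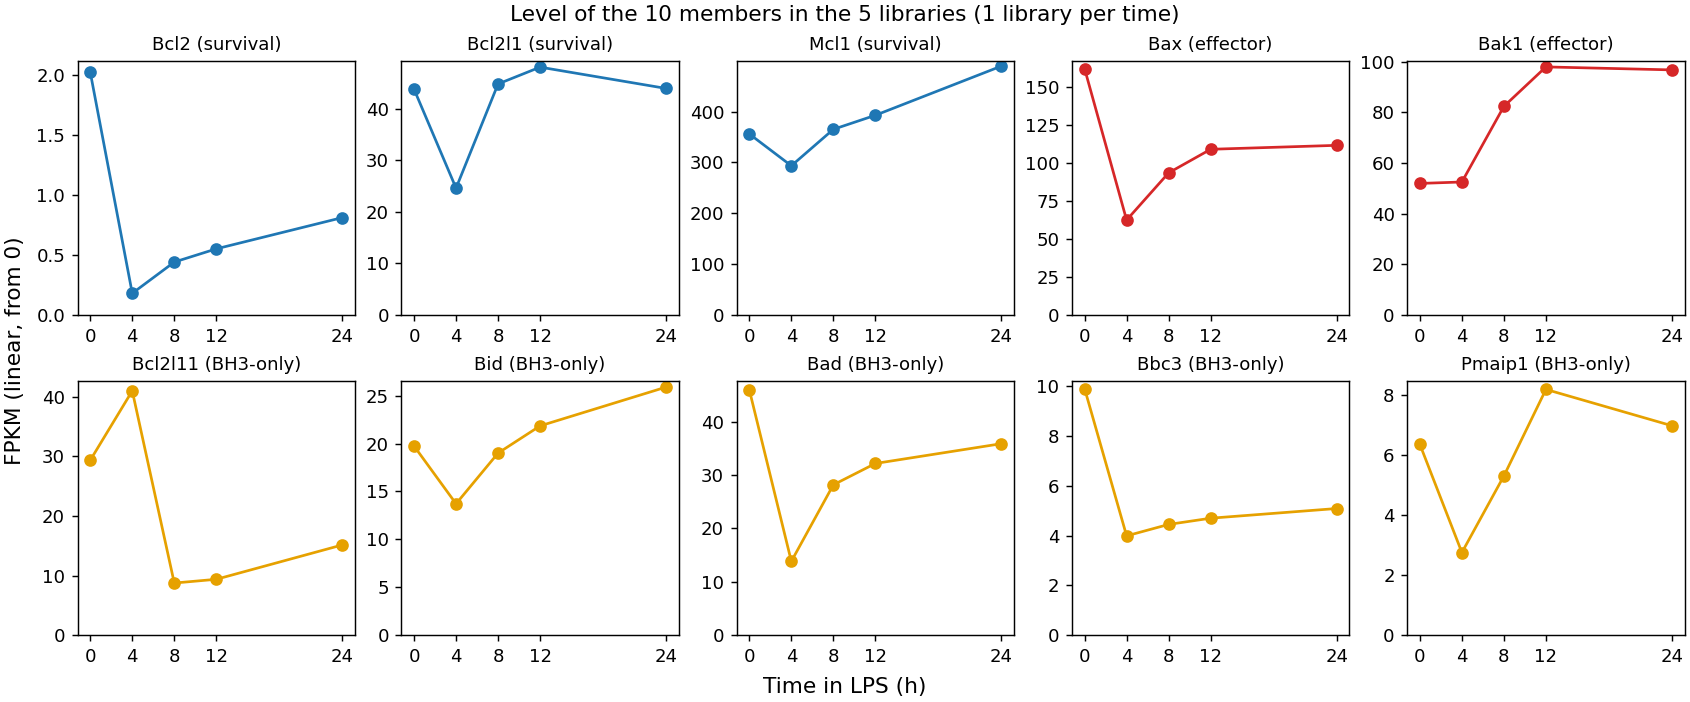
FPKM of each of the 10 members (linear axes from 0, a separate axis per gene) against hours in LPS, 1 point per library, coloured by role. As deposited, 8 of the 10 members have their lowest point at 4 h; Bcl2l11 has its highest point there (41.0 FPKM) and Bak1 has its lowest at 0 h.

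As deposited, most members were lower at 4 h than at 0 h and higher again by 8 h, and Bcl2l11 did the opposite. At 4 h, 8 of the 10 members were below their 0 h level, and 8 had their lowest level of the time course there. Scaled, Bcl2, Bax, Bad, Bbc3 and Pmaip1 were still below 0 h at 4 h, Bcl2l1 was level with it, and Mcl1, Bak1, Bcl2l11 and Bid were above it. On that scale Mcl1 and Bid were lowest at 0 h and Bbc3 at 24 h, so the count of 8 holds as deposited only. Of the 9 members over the filter 7 were lowest at 4 h as deposited, beside 46.1% of all 9795 genes over it. Of the 9 members over the filter, 3 (Bax, Bad and Bbc3) were lower by 2-fold or more in the 4 h library, where 38.1% of all genes were, and 0 were higher, where 12.2% of all genes were. The members' median difference was -0.81 as deposited and 0.00 scaled, beside -0.70 for all genes as deposited, so the members' share of lower genes was close to the background. Against the same 0 h library, 2 members were lower at 8 h (Bcl2l11 and Bbc3; 28.9% of all genes), 1 at 12 h (Bcl2l11; 21.5%) and 0 at 24 h (14.5%). None of the 9 was higher by that much at 8 h (12% of all genes), 12 h (12.3%) or 24 h (11.3%). The median differences of the members were -0.22, 0.13 and 0.00 at these times, and 0.28, 0.54 and 0.13 scaled, so the sign at 8 h turned. With libraries scaled to the median gene, 0 members were lower by 2-fold at 4 h and 1 was higher (Bcl2l11), while Bak1 was higher by 2-fold at 8, 12 and 24 h. On that scale all genes over the filter split into 2175 higher and 1472 lower at 4 h, against 1197 and 3729 as deposited. At 8 h the split was 1816 and 1529 against 1180 and 2831, and at 12 h it was 1645 and 1267 against 1205 and 2107. At 24 h it was 1245 and 1203 against 1106 and 1424, each out of 9795 genes.

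**Figure D2:**
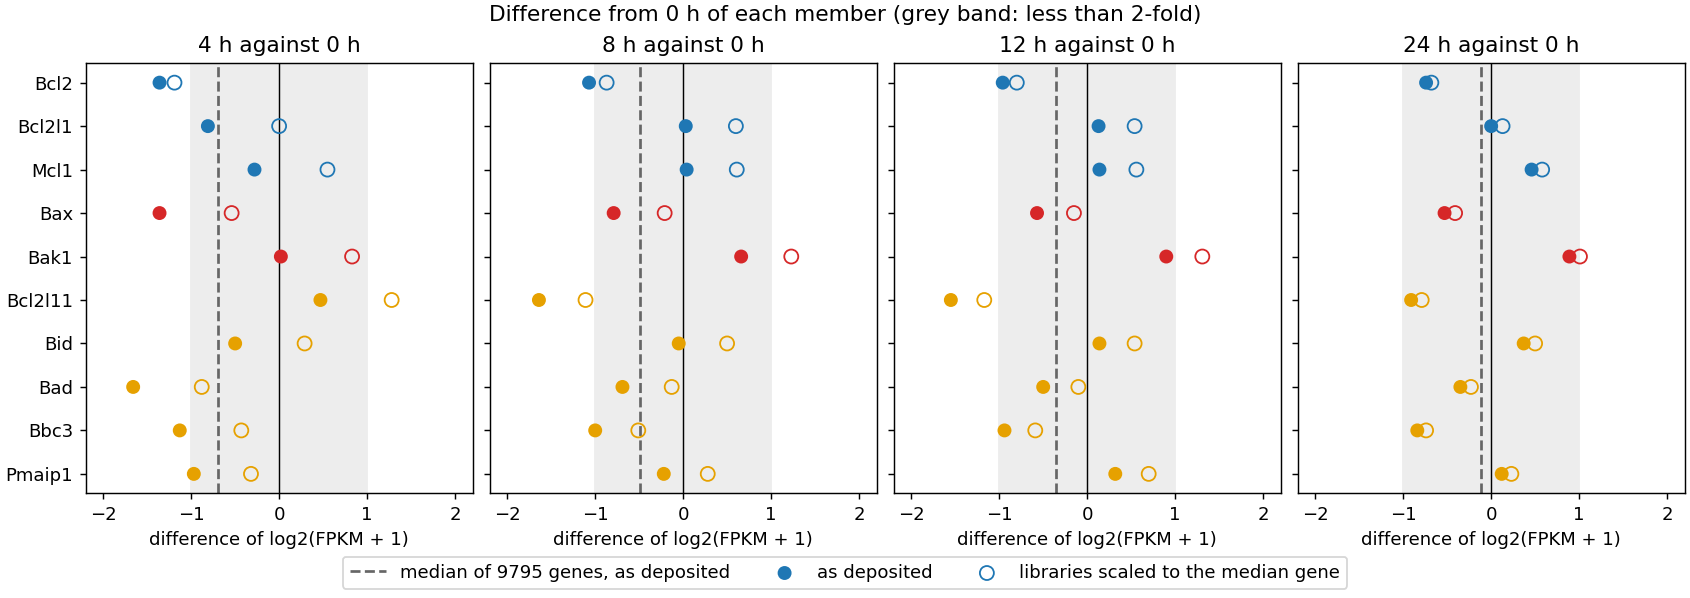
Difference of log2(FPKM + 1) from the 0 h library for each member at 4, 8, 12 and 24 h; filled points are values as deposited, open points after scaling to the median gene, the dashed line is the median of 9795 genes and the grey band marks differences under 2-fold. As deposited, 3 members over the filter (Bax, Bad, Bbc3) and Bcl2, which is under it, lie left of the band at 4 h; the open points of Bcl2l11 cross from right to left of the band between 4 h and 8 h.

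Among the 3 survival genes of the set (A1 is described further on), Mcl1 had the highest level at every time and Bcl2 the lowest. Mcl1 (gene ID 17210, chr3:95656944-95663179 in GRCm38, as are the positions that follow) encodes a short-lived protein that holds BAK and BIM. It stood at 356.17, 293.51, 365.26, 392.91 and 489.72 FPKM at 0, 4, 8, 12 and 24 h. It was the most abundant of the 10 members in all 5 libraries, between percentile 98.2 (4 h) and 99.3 (24 h) of the genes listed. The ratio of 24 h to 0 h was 1.37 (1.33 to 1.42) and that of 4 h to 0 h 0.824 (0.792 to 0.857), so both differences were larger than counting error and smaller than 2-fold. Scaled, the Mcl1 difference from 0 h lay between 0.55 and 0.61 at all 4 later times, so the lower level at 4 h appeared as deposited and not after scaling.

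Bcl2l1 (12048, chr2:152758732-152833803), whose main product BCL-XL keeps BAX and BAK inactive, was at 43.76, 24.58, 44.77, 48.03 and 43.90 FPKM at 0, 4, 8, 12 and 24 h. The 4 h library was low and the other 4 lay between 43.76 and 48.03. The difference of 4 h from 0 h was -0.81 as deposited and 0.00 scaled, and the ratio of 8 h to 4 h was 1.82 (1.53 to 2.17). Bcl2l1 also yields a shorter, death-promoting form, and gene-level values do not separate the forms. Bcl2 (12043, chr1:106538176-106714290), the founding member of the family, was at 2.02, 0.18, 0.44, 0.55 and 0.81 FPKM at 0, 4, 8, 12 and 24 h. All 4 stimulated libraries were below the 0 h library, and the ratio of 4 h to 0 h was 0.0891 (0.0416 to 0.17). At the estimated depth 0.18 FPKM stood for about 10 reads on the shortest coding transcript (2841 nt), with an interval of 0.0863 to 0.331 FPKM. The Bcl2 difference at 4 h was -1.36 as deposited, -1.19 scaled and -2.92 with a pseudocount of 0.1. Of the 50-base words of its longest transcript, 6.75% also occur in transcripts of other genes, so a few of its reads may not be its own.

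The effectors parted at 4 h. Bax (12028, chr7:45461695-45466903) was lower as deposited at every later time than at 0 h, with 162.41, 62.58, 93.7, 109.24 and 111.84 FPKM at 0, 4, 8, 12 and 24 h. Its ratio to 0 h was 0.385 (0.328 to 0.451) at 4 h and 0.689 (0.603 to 0.785) at 24 h. Of the Bax loss at 4 h, 49.3% was regained by 24 h. Bak1 (12018, chr17:27019812-27028627), whose product sits in the mitochondrial membrane even in healthy cells, was at 51.93, 52.5, 82.37, 97.94 and 96.76 FPKM at 0, 4, 8, 12 and 24 h. Its first pair of libraries did not differ beyond counting error, with a ratio of 4 h to 0 h of 1.01 (0.919 to 1.11), and the 3 later libraries were all higher. The ratio to 0 h was 1.59 (1.46 to 1.73) at 8 h, 1.89 (1.73 to 2.05) at 12 h and 1.86 (1.71 to 2.03) at 24 h. Its difference at 12 h was 0.90 as deposited, just short of 2-fold, and 1.31 scaled. The lower Bax level depended on the scaling, and at 4 h its difference was -1.36 as deposited, -0.54 scaled and -0.18 once the trend of differences by transcript length was removed. In the same order its difference was -0.79, -0.21 and 0.16 at 8 h, -0.57, -0.15 and 0.32 at 12 h and -0.53, -0.41 and 0.15 at 24 h, so its sign from 8 h on turned once the length trend was removed. The longest coding transcript of Bax has 1100 nt. For Bak1 these 3 values at 24 h were 0.89, 1.01 and 1.09. Among the 50-base words of the Bax transcript 13.8% are also annotated in Gm45808, and among those of Bak1 18.2% also in Ggnbp1, so the reads of these genes may overlap.

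Within a library the Bax to Bak1 ratio does not depend on the scaling of that library. It was 3.13, 1.19, 1.14, 1.12 and 1.16 in time order. The 4 stimulated libraries lay close together and the 0 h library apart from them. Bax transcripts stayed above those of Bak1 in all 5 libraries. The ratio can still shift with the trend by transcript length. With that trend removed, the differences at 4 h were -0.18 for Bax and 0.81 for Bak1, against -1.36 and 0.02 as deposited.

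**Figure D3:**
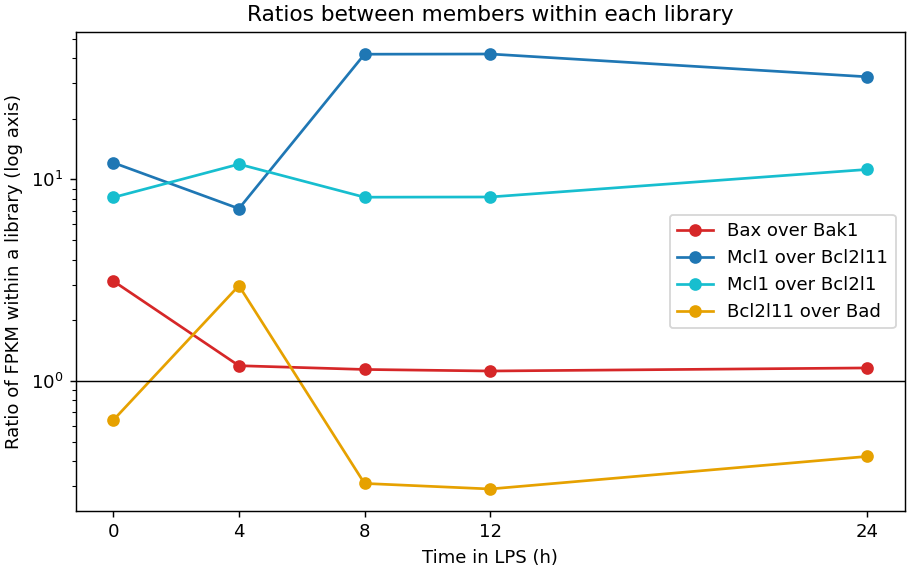
Ratios of FPKM between members within each library (log axis) against hours in LPS; the horizontal line marks equal levels. Bax over Bak1 goes from 3.13 at 0 h to 1.19 at 4 h and stays near that level, Mcl1 over Bcl2l11 goes from 7.16 at 4 h to 41.8 at 8 h.

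Bcl2l11 (12125, chr2:128126038-128162547) had the widest range of the 9 members over the filter, 4.69-fold between its highest and lowest library. Its product BIM binds all survival proteins and can activate BAX and BAK directly. Bcl2l11 stood at 29.35, 41.0, 8.74, 9.37 and 15.14 FPKM at 0, 4, 8, 12 and 24 h. The 4 h library was the highest, the 8 h and 12 h libraries were the lowest and did not differ beyond counting error, and 24 h lay between. The ratio of 4 h to 0 h was 1.40 (1.22 to 1.61), and the difference, 0.47 as deposited and 1.28 scaled, was at percentile 81.2 of the genes over the filter. The ratio of 8 h to 4 h was 0.213 (0.171 to 0.263), the interval that spans this range. Between these libraries Bcl2l11 was the 1 member of 9 that was lower by 2-fold or more, as 3.88% of all genes were, and 0 members were higher (5.23%). Only 26 of the 9795 genes (0.265%) had a larger negative difference between these libraries. Of the 35 genes lower by 4-fold or more over this interval, 31 had been above their 0 h level at 4 h. Both counts use the 4 h library, so genes picked for a high 4 h value tend to exceed 0 h there. No conclusion is drawn from the 31. The Bcl2l11 difference between 8 h and 4 h was -2.11 as deposited, -2.39 scaled and -2.13 with the length trend removed. Against 0 h it was -1.64 at 8 h and -0.91 at 24 h, and -1.11 and -0.79 scaled. From 12 h to 24 h it was higher by a ratio of 1.62 (1.27 to 2.06).

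Bad and Bbc3 were lower at 4 h, and Bad came back further. Bad (12015, chr19:6941861-6951905) encodes a sensor that growth factor kinases keep inactive by phosphorylation. It was at 45.96, 13.82, 28.16, 32.16 and 35.87 FPKM at 0, 4, 8, 12 and 24 h. The 4 h library was far below the other 4, and the 24 h library was the closest to 0 h. The ratio to 0 h was 0.301 (0.245 to 0.366) at 4 h and 0.78 (0.676 to 0.901) at 24 h, and 68.6% of the loss was regained as deposited. Scaled, the Bad differences from 0 h were -0.88, -0.13, -0.10 and -0.23 at 4, 8, 12 and 24 h. With the length trend removed they were -0.64, 0.07, 0.15 and 0.11, so as for Bax the sign turned from 8 h on. Bbc3 (170770, chr7:16308398-16318334) encodes PUMA, a target of p53 and FoxO factors. It was at 9.91, 3.99, 4.45, 4.70 and 5.09 FPKM at 0, 4, 8, 12 and 24 h. The 4 stimulated libraries lay close together below the 0 h library, with 18.6% of the loss regained at 24 h as deposited. That return turned with the scaling: the Bbc3 difference between 24 h and 4 h was 0.29 as deposited, -0.30 scaled and -0.26 with the length trend removed, and scaled its differences from 0 h were -0.43, -0.51, -0.59 and -0.74 at 4, 8, 12 and 24 h. Its ratio to 0 h was 0.403 (0.25 to 0.633) at 4 h and 0.514 (0.332 to 0.782) at 24 h, while the ratio of 24 h to 4 h, 1.28 (0.754 to 2.18), was within counting error. At 8 h its ratio to 0 h was 0.449 (0.284 to 0.695), which lay at the 2-fold threshold on the log2(FPKM + 1) scale. Scaled, the differences of both genes at 4 h were under 2-fold. With the length trend removed, the Bbc3 differences from 0 h were -0.18, -0.32, -0.38 and -0.48 at 4, 8, 12 and 24 h. As deposited they were -1.13, -1.0, -0.94 and -0.84.

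As deposited, Pmaip1 and Bid had their lowest level at 4 h and ended above 0 h. Pmaip1 (58801) encodes NOXA, which binds MCL1 and hastens its destruction. It was at 6.35, 2.75, 5.30, 8.18 and 6.97 FPKM at 0, 4, 8, 12 and 24 h. Its difference at 4 h, -0.97, was just short of 2-fold, and the ratio of 24 h to 4 h was 2.53 (1.82 to 3.58). The ratio of 24 h to 0 h was 1.10 (0.848 to 1.42), within counting error. Bid (12122, chr6:120893119-120917062) encodes the protein that caspase-8 cleaves to link death receptors to mitochondria. It was at 19.74, 13.71, 19.0, 21.84 and 25.89 FPKM at 0, 4, 8, 12 and 24 h. The ratio of 24 h to 0 h was 1.31 (1.08 to 1.60), and the difference at 4 h was -0.50 as deposited and 0.29 scaled. Between 4 h and 24 h, 2 members were higher by 2-fold or more (Bad, with a difference of 1.31, and Pmaip1, with 1.09), where 25% of all genes were, and 1 was lower (Bcl2l11, -1.38), where 8.19% were. Scaled, the differences of Bad and Pmaip1 were 0.65 and 0.55 and that of Bcl2l11 -2.08. In the steps from 8 h to 12 h and from 12 h to 24 h 0 members were 2-fold apart. Of all genes 2.58% were higher and 0.939% lower in the first of these steps, and 3.42% and 3.5% in the second.

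Seen as shares of the summed FPKM of the 10 members, the survival genes made up 55.2%, 62.6%, 62.9%, 60.9% and 64.2% at 0, 4, 8, 12 and 24 h. Mcl1 alone made up 49.0% at 0 h and 58.9% at 24 h. The BH3-only share was 15.3% at 0 h and 14.8% at 4 h, and it was 10.1%, 10.5% and 10.7% at 8, 12 and 24 h. The effectors went from 29.5% at 0 h to 22.6% at 4 h and 25.1% at 24 h. Like the Bax to Bak1 ratio, these shares can shift with the trend by transcript length, and they were not recomputed with it removed. With it removed, the Bax difference from 0 h was -0.18 at 4 h and 0.15 at 24 h, against -1.36 and -0.53 as deposited. For Bak1 the values were 0.81 and 1.09, against 0.02 and 0.89, and for Mcl1 0.34 and 0.53, against -0.28 and 0.46. Of the BH3-only sum, Bcl2l11 supplied 26.4%, 54.5% and 13.3% at 0, 4 and 8 h, and Bad 41.3%, 18.4% and 42.9%. Bad was thus the most abundant BH3-only transcript at 0, 8, 12 and 24 h, and Bcl2l11 at 4 h. The ratio of Mcl1 to Bcl2l11 was 12.1, 7.16, 41.8, 41.9 and 32.3 in time order, so the libraries from 8 h on lay above those of 0 and 4 h. The ratio of Mcl1 to Bbc3 was 35.9, 73.6 and 96.2 at 0, 4 and 24 h. These are ratios of transcripts, and protein levels were not measured.

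**Figure D4:**
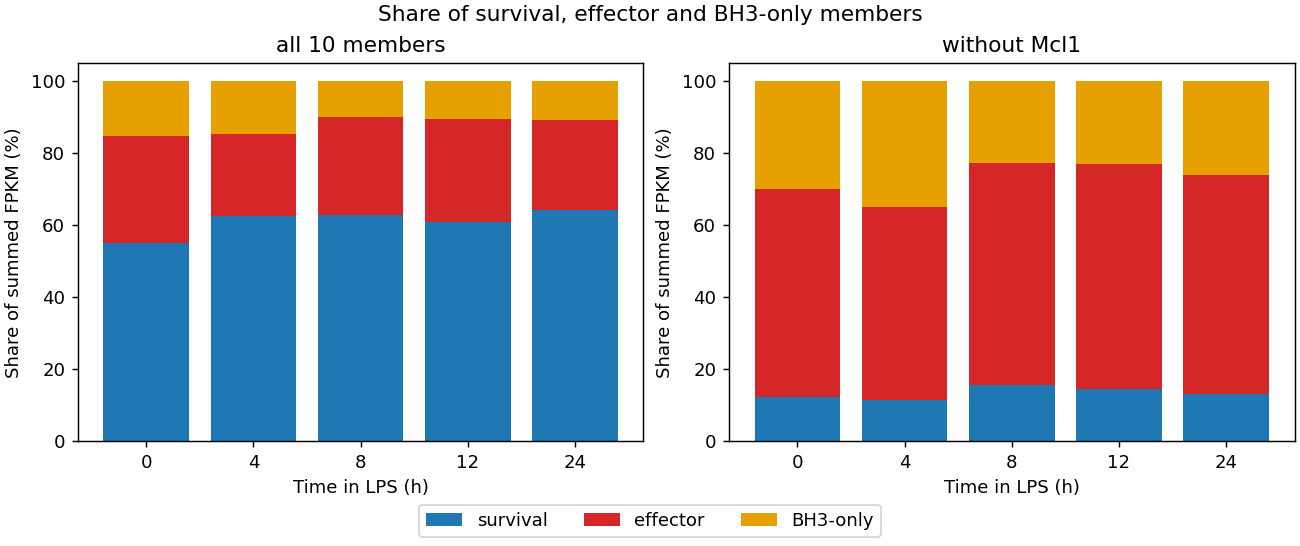
Share of the summed FPKM of the 10 members held by survival, effector and BH3-only genes in each library, with Mcl1 (left) and without it (right). As deposited, the survival share with Mcl1 is 55.2% at 0 h and 60.9% to 64.2% later. Without Mcl1 the survival share is 11.5% to 15.8% and the BH3-only share is highest at 4 h (35.0%).

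The members with the most similar time courses were compared by the Euclidean distance between their 4 log2 differences from 0 h. The closest were Mcl1 and Bid (distance 0.249), Bcl2 and Bbc3 (0.259), Bax and Bad (0.374) and Bcl2l1 and Pmaip1 (0.374). The closeness of Bcl2 and Bbc3 depends on the 1 added to low levels. Their differences at 4 h were -1.36 and -1.13, but -2.92 and -1.29 with a pseudocount of 0.1. Among all genes over the filter, the 3 closest to Bax were Lypla2 (64.38 and 25.75 FPKM at 0 and 4 h), Borcs7 and Nop56, at distances of 0.081 to 0.097. Closest to Bak1 were Lgals8 (48.7 and 95.48 FPKM at 0 and 12 h), Kansl1l and Hsp90aa1, at 0.16 to 0.20. Closest to Mcl1 were Zfp408, Zfp24 and Yipf5 (0.096 to 0.13), and closest to Bcl2l1 were Lasp1, Edc3 and Pole4 (0.06 to 0.14). Bbc3 had Wdr77 at 0.023, Enoph1 at 0.07 and Capg at 0.12. Bid had 1110059E24Rik, Vps33b and Ago1 (0.072 to 0.10), Bad had Lrp12, Mrpl10 and Osbpl7 (0.11 to 0.15), and Pmaip1 had Gzf1, Fastkd1 and Tars (0.13 to 0.15). For Bcl2, which is below the filter, Fbxo8, Sirt5 and Ndufa8 were closest (0.084 to 0.12), with the same limit from the added 1. The nearest to Bcl2l11 lay farther away than those of the other 9 members. They were Prkd3 (6.77, 9.69 and 2.28 FPKM at 0, 4 and 8 h), Snx9 (28.03, 37.63 and 11.9) and Abcb10 (4.05, 5.47 and 1.33), at 0.52 to 0.56. These distances rest on 4 values each, which share the 0 h library.

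Beside the 10 members, 13 of 16 other genes of the family were listed and 10 passed the filter, of which 3 were higher and 3 lower by 2-fold or more at 4 h (median -0.41, or 0.38 scaled), and 2 higher and 1 lower at 24 h (median -0.07, or 0.04 scaled). Of all genes over the filter, 12.2% were higher and 38.1% lower by that much at 4 h as deposited, and 11.3% and 14.5% at 24 h. The A1 survival genes, targets of NF-kappaB, were the 3 other family genes that were higher by 2-fold or more at 4 h. Bcl2a1b was at 145.38, 1158.51, 543.94, 204.1 and 95.66 FPKM at 0, 4, 8, 12 and 24 h. Bcl2a1d was at 15.23, 547.87, 334.04, 115.21 and 22.86 FPKM at these times, and Bcl2a1a at 0.15, 117.9, 110.27, 66.81 and 20.31. All 3 were highest at 4 h and lower at each later time. The copies share much of their sequence: 69.0% to 79.5% of the 50-base words of each transcript also occur in other genes. How reads were divided among the 3 copies is therefore uncertain, and their sum is firmer in that respect. The other genes include Gm29094 and Bcl2a1c, which are not in the sum, so reads shared with these remain uncertain. Summed, A1 stood at 160.8, 1824, 988.2, 386.1 and 138.8 FPKM at 0, 4, 8, 12 and 24 h, a ratio of 11.3 between 4 h and 0 h. The sum was 0.451 times Mcl1 at 0 h, 6.22 times at 4 h, 2.71 times at 8 h, 0.983 times at 12 h and 0.283 times at 24 h. With the 3 A1 genes added to the 10 members, the survival genes' share of the summed FPKM of these 13 genes was 63.3%, 91.8%, 85.3%, 74.5% and 69.3% at 0, 4, 8, 12 and 24 h.

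Of the remaining family genes, Bmf, a BH3-only gene, was at 7.14, 0.01, 0.33, 0.84 and 1.64 FPKM at 0, 4, 8, 12 and 24 h. Bcl2l12 was at 6.11 and 0.60 FPKM at 0 and 4 h, and Bnip3l, a mitophagy receptor, at 62.06 and 18.84. Bnip3, another mitophagy receptor and a hypoxia target, was at 9.79, 7.08, 61.61, 111.48 and 100.08 FPKM at 0, 4, 8, 12 and 24 h. The survival gene Bcl2l2 (9.04 and 13.81 FPKM at 0 and 24 h), Bcl2l13 (4.82 and 5.76) and the autophagy gene Becn1 (52.25 and 40.33) were within 2-fold at 4 h and 24 h. Bik, Bcl2l14 and Bcl2l15 stayed at or below 0.39 FPKM. Bik was listed at 0 at 0 h, and Bcl2l10, Bok and Hrk were not analysed here.

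**Figure D5:**
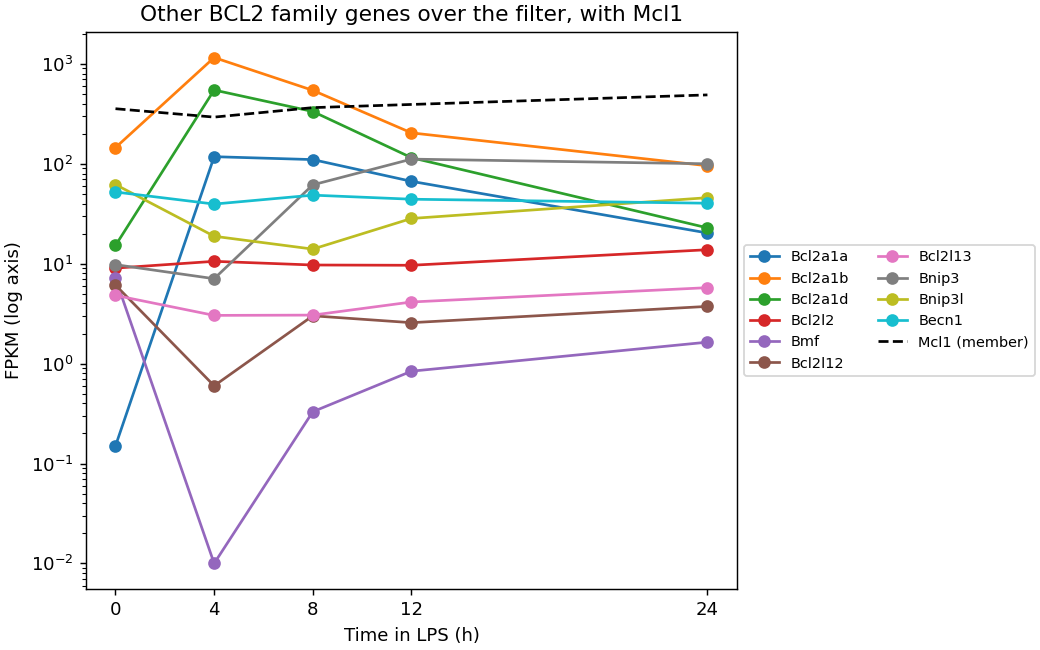
FPKM (log axis) of the 10 other BCL2 family genes over the filter and of Mcl1 (dashed) against hours in LPS, 1 library per time. Bcl2a1b and Bcl2a1d exceed Mcl1 at 4 h (1158.51 and 547.87 against 293.51 FPKM) and both are below it from 12 h on; Bmf has its lowest point, 0.01 FPKM, at 4 h.

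Genes acting after BAX and BAK went both ways. All 17 were listed and 16 passed the filter, of which 6 were higher and 5 lower by 2-fold or more at 4 h (median -0.28, with 7 higher, 3 lower and a median of 0.54 scaled). At 24 h 4 were higher and 0 lower (median 0.29). The shares of all genes over the filter stand beside this list and the next. As deposited, 12.2% were higher and 38.1% lower by 2-fold or more at 4 h, and 11.3% and 14.5% at 24 h. Birc3, an inhibitor of apoptosis that NF-kappaB induces, was at 14.61, 114.31 and 83.94 FPKM at 0, 4 and 24 h. Casp9, the initiator caspase of the apoptosome, was at 12.9, 1.54 and 7.82, and Casp6 at 12.66, 2.87 and 6.17. Among 15 p53, FoxO and stress genes, all over the filter, 2 were higher and 8 lower by 2-fold or more at 4 h (median -1.21, with 2 and 5 scaled), and 7 higher and 1 lower at 24 h (median 0.41). Cdkn1a, the cell cycle inhibitor p21, was at 34.93 and 1047.4 FPKM at 0 and 4 h, and Mdm2, the p53 ligase, at 35.36, 108.09 and 172.48 at 0, 4 and 24 h. Other p53 targets were lower at 4 h, such as Sesn1 with 64.76 and 0.35 FPKM and Trp53inp1 with 6.62 and 0.63. Trp53 itself was at 27.98 and 20.92 FPKM at 0 and 4 h. Foxo3 was at 2.61, 0.56 and 7.68 FPKM at 0, 4 and 24 h, and Foxo1 at 3.94, 1.05 and 1.89.

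Genes for turnover and modification of the family's proteins numbered 15, all over the filter, of which 2 were higher and 3 lower by 2-fold or more at 4 h (median 0.11, with 5 higher and 0 lower scaled), and 3 higher and 1 lower at 24 h (median 0.27). Of all genes over the filter, 12.2% were higher and 38.1% lower by that much at 4 h as deposited, and 11.3% and 14.5% at 24 h. The kinase gene Pim1, whose product phosphorylates BAD, was at 31.11 and 356.51 FPKM at 0 and 4 h, and Casp8, which cleaves BID, at 19.75 and 54.25. Fbxw7, a ligase subunit for MCL1, was at 9.93 and 2.69 FPKM at 0 and 4 h, and Dynll1, the dynein light chain that binds BIM, at 49.0 and 17.01.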

How the data were processed

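RNA sequencing of 5 libraries, 1 per time point, was analysed. The authors deposited FPKM values rounded to 2 decimals, in a single table whose columns name the libraries, per the file headers. The submitters' processing notes name Bowtie2, RSEM and GRCm38 without versions or roles. Annotation, strand and filters: not given in the sources used here. Differences of log2(FPKM + 1) were computed for 8 comparisons on genes with a mean of at least 1 FPKM and counted from 2-fold. No test was run, as no group has replicates. The members and lists were chosen with earlier results of these data known. All members were named; of other lists, the 2 largest differences in each direction at 4 h or 24 h (1 such gene is not reported here) and all other family genes; Trp53, Foxo1, Foxo3 and the dendritic cell markers were added after their values were seen. The 3 genes nearest each member were found by distance over 4 differences.

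In the table, 20 symbols turned into dates were restored by gene identifier. Alternatives were pseudocounts of 0.1 and 5, scaling to the median gene, removal of the trend by transcript length (lowess, span 0.3, longest coding transcript in GENCODE M21, known for 96.8% of genes over the filter), no filter, and role shares without Mcl1. The depth came from genes with 1 transcript: with the length reduced by 40 nt, the best step between 5 and 60 M reads made 52.9% to 65.1% of 82 to 87 low values whole within 0.04 reads or the rounding, against 24.2% to 25.3% for evenly spread values. Whole reads were not recovered for most genes, so no count test was run. Calculations used Python 3.11.15, numpy, scipy and statsmodels 0.14.6, and the counting of differences was tested on simulated data.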

Additional observations from a re-analysis of the deposited data

How the results depend on the processing

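No paired analysis was possible because each time point has 1 library, and for the same reason no replicate could be left out. Of the 80 differences of members, 12 reached 2-fold, and all 12 kept their direction with pseudocounts of 0.1 and 5, under scaling to the median gene, and after removal of the trend by length; 12, 7, 5 and 5 of them still reached 2-fold in this order. Against 0 h at 4 h, scaling gave 1 member higher and 0 lower, and removing the length trend 0 lower. At 8 h both gave 1 higher and 1 lower, and a pseudocount of 5 gave 1 lower. At 12 h both gave 1 higher, and a pseudocount of 0.1 gave 2 lower. At 24 h both gave 1 higher. With the length trend removed, 9484 genes were compared. Of these, 1853 were higher and 1159 lower at 4 h, and 1701 and 1209 at 8 h. At 12 h the counts were 1537 and 959, and at 24 h 1144 and 922. For 8 h against 4 h a pseudocount of 0.1 gave 1 higher. For 24 h against 4 h a pseudocount of 5 gave 1 higher, and both scaling and length removal gave 0. The cause was not tested. Without a filter Bcl2 joined the lower members at 4 h (4 in all) and 8 h (3). Without Mcl1 the survival share was 11.5% to 15.8%, the effector share 53.5% to 62.4% and the BH3-only share 22.9% to 35.0%. Depth limits Bcl2 and Bbc3 most: at the estimated depth they rest on 10 to 108 and 28 to 69 reads of their shortest coding transcript.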
